A study of Canis lupus familiaris with 45 samples.

Results

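Gene expression in the left ventricle of dogs in end-stage heart failure was compared with that of unpaced dogs. The samples were chosen by their titles: 9 arrays from 3 dogs titled End-stage and 9 arrays from 3 dogs titled Day-0, which is 18 of the 45 arrays of the series. All dogs were male and age-matched. The End-stage dogs had a pacemaker implanted through the chest wall with the lead on the outer surface of the right ventricle, were paced at 240 ppm for 3 to 4 weeks, and had end-stage failure verified by hemodynamic measurements. The Day-0 dogs were not paced, and the labels do not say whether they underwent the operation. Full-thickness pieces of left ventricular wall were frozen. For every dog 3 separate RNA isolations were made, and 1 single-colour oligonucleotide array was run per isolation. The other 27 arrays came from dogs paced more briefly, called Day-3, Week-1 and Week-2 after the length of pacing, and enter here only through the shared estimate of the spread and where levels by stage are given.

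Rapid pacing is a long-used way of producing heart failure in large animals: the ventricle dilates, its wall contracts poorly and filling pressure climbs, without a block of the coronary arteries. The working ventricle draws most of its energy from fatty acids burned in mitochondria, and stores and hands on energy as phosphocreatine. In failing hearts in general, textbooks describe a return of fetal genes such as the natriuretic peptides, altered handling of calcium by the sarcoplasmic reticulum, growth of the collagen matrix between the muscle cells, and a loss of oxidative capacity. The tissue sample holds muscle cells, fibroblasts, vessels and blood cells together, so fewer cells of a type and less RNA per cell cannot be told apart.

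The values are log2 of the array signal, which the authors scaled to a common mean, averaged over the 3 isolations of a dog. A difference is the mean of the End-stage dogs minus that of the Day-0 dogs in log2 units, so that 1 is a doubling of signal; errors are standard errors (SE) of that difference, with 3 dogs in each group. The test was limma's moderated test over 14301 probe sets with Benjamini-Hochberg adjustment, and a probe set passed at an adjusted p under 0.05. In 2 dogs, End-stage dog 1 and Week-1 dog 1, the isolations of the dog disagreed among themselves in probe sets that tell dogs apart. Over all tested probe sets the median SD between isolations of End-stage dog 1 was 0.26, within the 0.18 to 0.29 of the other dogs. It was the highest of the 6 compared dogs, the others of which lay at 0.18 to 0.21. Over 200 probe sets chosen on the other 13 dogs as those that best told dogs apart, each of the 39 arrays of those 13 dogs matched best with an array from the same animal, with a lowest correlation of 0.74 within an animal. Choosing the probe sets on these 13 dogs favoured such a match in advance. The 0.74 is therefore not an even yardstick for the 2 dogs left out of the choice. In End-stage dog 1, isolations 2 and 3 correlated at 0.98 with each other, but isolation 1 correlated with them at 0.32 and 0.35. In Week-1 dog 1, isolations 1 and 3 correlated at 0.86, and isolation 2 with them at 0.15 and 0.19. These odd arrays were each the closest to the other (0.49), while End-stage isolations 2 and 3 correlated with isolations 1 and 3 of the Week-1 dog at 0.58 to 0.68. Whether any of these 6 arrays carries the label of another was not tested, so End-stage dog 1 and Week-1 dog 1 mean the arrays so labelled. Differences are those of all 3 End-stage dogs, and the value without End-stage dog 1 (written "without dog 1") is added for genes whose signals are listed dog by dog and for list medians given as numbers. The log2 ratio of 3-prime to 5-prime signal, a measure of RNA and labelling quality, averaged -0.05 in Day-0 and -0.06 in End-stage for GAPDH and -2.70 and -2.27 for actin, and the median signal was 38.6 and 37.5. The dogs of both groups overlapped in each of these measures (exact permutation tests, two-sided p = 0.5, 0.3 and 0.7), but with 3 dogs a group p cannot go below 0.1, and the part of the actin difference in the results was not tested.

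Few single probe sets separated the failing from the unpaced ventricle beyond the spread between dogs. Of 14301 probe sets, 2 (0.014%) passed the threshold, both lower in End-stage, and neither carries a gene symbol in the annotation. For 1593822_at the log2 signals of Day-0 dogs 1, 2 and 3 were 9.37, 9.59 and 9.76, and those of End-stage dogs 1, 2 and 3 were 8.15, 8.04 and 8.30. The groups lay more than 1 log2 unit apart with no overlap, and the probe set fell by 1.41 (SE 0.21, adjusted p = 0.046). It was not past the threshold without End-stage dog 1 (-1.40, adjusted p = 0.069), and it passed under 8 of 23 alternative settings. Treating all 45 arrays as observations with the dog as a random block gave 322 probe sets (2.25%), which included both. For 1595083_at, one of the brighter probe sets, the signals were 11.60, 11.48 and 11.44 in the Day-0 dogs and 10.83, 10.54 and 10.68 in the End-stage dogs. It fell by 0.82 (SE 0.12, adjusted p = 0.046), again with no overlap, and its difference without End-stage dog 1 was -0.90 (adjusted p = 0.049). Both were already low at the earlier stages: the means against Day-0 were -1.01, -1.20 and -1.24 for 1593822_at in Day-3, Week-1 and Week-2, and -0.60, -0.80 and -0.83 for 1595083_at.

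The small number of calls stood beside larger counts at looser limits. An unadjusted p under 0.05 was reached by 1177 probe sets (8.23%), 529 higher (3.7%) and 648 lower (4.53%) in End-stage. In 906 (6.34%) the 3 End-stage dogs all lay above the 3 Day-0 dogs and in 1135 (7.94%) all below, 14.3% together. With no difference between groups, a share of 0.05 would be expected to reach an unadjusted p under 0.05. A share of 0.1 would be expected to show no overlap, so these are not counts of changed probe sets. Dogs of 1 group differed with a median SD of 0.27 and isolations of 1 dog with 0.31, and the SE of the difference had a median of 0.22. A probe set that missed the threshold was not thereby shown to be unchanged.

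Without End-stage dog 1, 6 probe sets (0.042%) passed, and 5 of them (0.035%) were higher. CCL2, the chemokine that draws monocytes into tissue (chromosome 9, 38976777 to 38978526 on assembly UU_Cfam_GSD_1.0), measured 6.26, 5.97 and 5.82 in the Day-0 dogs and 6.46, 7.51 and 7.40 in the End-stage dogs. End-stage dogs 2 and 3 lay more than 1 unit above every unpaced dog, and dog 1 just above the highest of them. The difference was 1.44 (SE 0.18, adjusted p = 0.024) without dog 1 and 1.11 (adjusted p = 0.178) with it. NEFH, the heavy neurofilament subunit best known from axons (chromosome 26, 23138184 to 23146781), showed the widest gap between the End-stage dogs. Its signals were 4.97, 5.59 and 4.68 in Day-0 and 5.63, 8.39 and 7.65 in End-stage, and within End-stage dog 1 the 3 isolations read 7.28, 4.82 and 4.79. Isolation 1 of that dog thus sat with the other failing hearts and isolations 2 and 3 with the unpaced ones. The NEFH difference was 2.94, a 7.69-fold higher signal, without dog 1 (adjusted p = 0.049) and 2.15 with it (adjusted p = 0.219).

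The same split within End-stage dog 1 appeared for GPX1, a glutathione peroxidase that removes hydrogen peroxide, read here by the probe set 1584367_s_at. The Day-0 dogs measured 10.27, 10.19 and 10.22, a spread of under 0.1, and the End-stage dogs 10.52, 11.01 and 10.94, with 10.98, 10.24 and 10.33 in the isolations of dog 1. The difference was 0.75 without that dog (adjusted p = 0.049) and 0.60 with it (adjusted p = 0.178), and all 3 GPX1 probe sets had a difference above 0. The unnamed probe sets 1590831_at (0.97) and 1596842_at (1.31) were the other 2 that were higher without dog 1, each with an adjusted p of 0.049, and 1595083_at remained as the probe set that was lower. These 6 were singled out after their values were seen. When End-stage dog 1 was instead represented by isolation 1 alone, 20 probe sets passed, 13 higher and 7 lower, among them CCL2, NEFH, GPX1, THBS1 and CILP; when it was represented by isolations 2 and 3, none passed, with 1189 at an unadjusted p under 0.05 in limma.

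**Figure D1:**
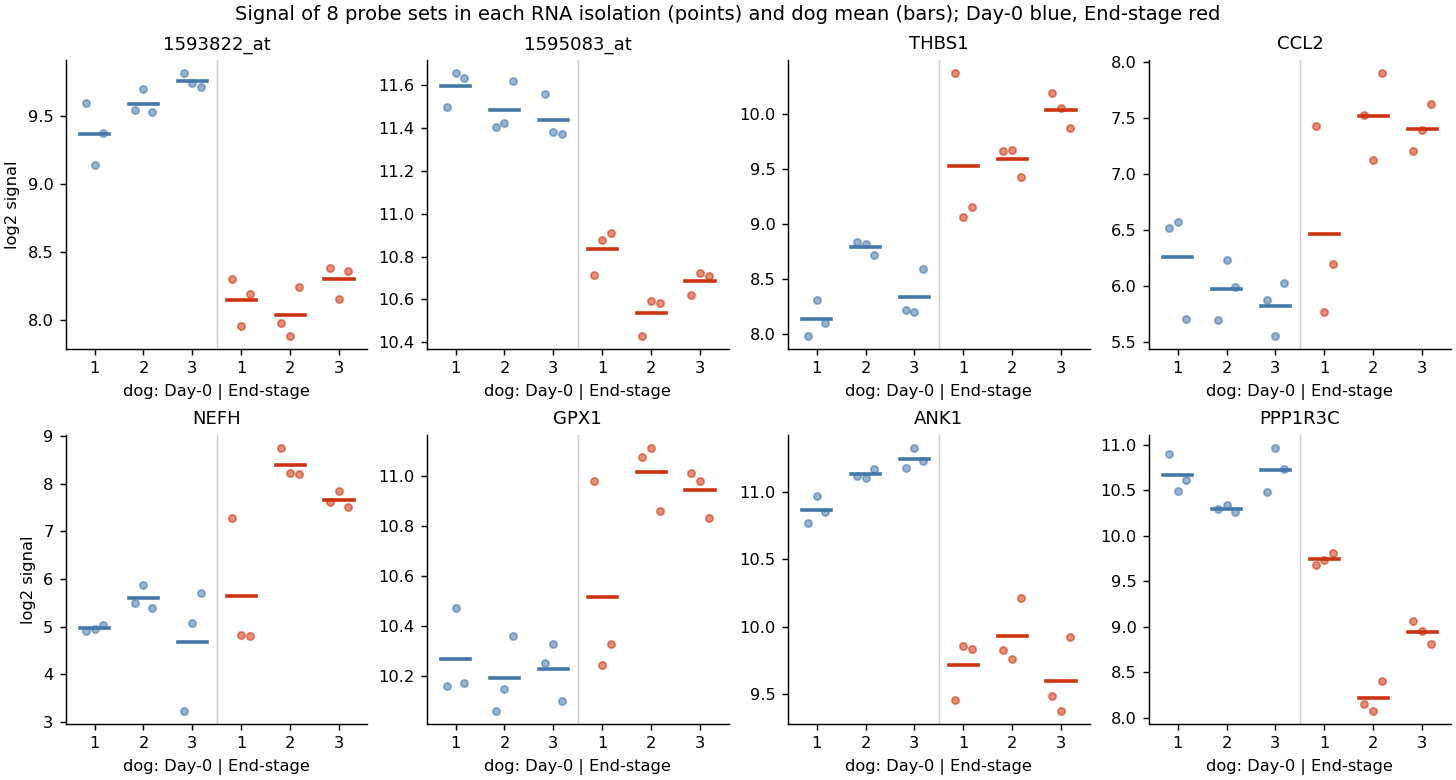
Log2 signal (vertical axis, a separate scale in each panel) of 8 probe sets in Day-0 dogs 1 to 3 (blue) and End-stage dogs 1 to 3 (red); points are the 3 RNA isolations of a dog in order and bars are the dog's mean. The isolations of End-stage dog 1 lie together for 1593822_at, 1595083_at, ANK1 and PPP1R3C, while for THBS1, CCL2, NEFH and GPX1 isolation 1 lies with End-stage dogs 2 and 3 and the others lie lower.

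Among probe sets with 1 gene symbol, an unadjusted p under 0.01 and no overlap between the groups were met by 92 higher (1.20%) and 110 lower (1.43%) of 7674. The 15 largest of each are described next; none passed the threshold over all probe sets, and the adjusted p ranged from 0.115 to 0.327 among the higher and from 0.178 to 0.318 among the lower ones. All 30 kept their direction without End-stage dog 1, but the rule of no overlap fixed this in advance. At least 1 of the 6 dogs read below the filter level, a log2 signal of 4.51, in 7 of the higher and 4 of the lower probe sets, where the signal is close to the array's floor and a fold is uncertain.

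Of the higher genes measured above the filter level in every dog, LPL and CCN2 were among those with the largest differences. LPL, lipoprotein lipase, releases fatty acids from circulating lipoproteins at the capillary wall (chromosome 25, 37256141 to 37280964). Its brighter probe set measured 8.52, 9.74 and 8.51 in the Day-0 dogs and 9.94, 10.89 and 11.00 in the End-stage dogs, a difference of 1.68 (SE 0.49, adjusted p = 0.285; 2.02 without dog 1). Day-0 dog 2 came within 0.2 of End-stage dog 1, and the other dogs were well apart. The second LPL probe set, 1583007_at, gave 1.96, so both pointed the same way. CCN2, connective tissue growth factor, which stimulates matrix production by fibroblasts, measured 9.12, 9.03 and 9.37 in Day-0 and 10.63, 11.29 and 10.96 in End-stage. Every End-stage dog lay more than 1 unit above every Day-0 dog (1.79, SE 0.51, 3.45-fold, adjusted p = 0.269; 1.95 without dog 1). The SE is estimated over all 15 dogs. With the 6 compared dogs alone the SE of CCN2 was 0.18, and it passed the threshold (adjusted p = 0.013 in limma), as did 5 other probe sets, ANK1 among them (adjusted p = 0.021).

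CILP, a secreted protein of cartilage and of cardiac fibroblasts, measured 6.26, 6.46 and 6.10 in the Day-0 dogs and 7.03, 7.95 and 7.93 in the End-stage dogs (1.36, SE 0.34, adjusted p = 0.200); without dog 1 the difference was 1.67. THBS1, thrombospondin 1, a matrix protein that can activate latent TGF-beta, came just below the 15 in size (chromosome 30, 7055241 to 7071904). It measured 8.14, 8.79 and 8.34 in Day-0 and 9.53, 9.59 and 10.03 in End-stage. No End-stage dog overlapped with the unpaced dogs (1.29, SE 0.23, 2.45-fold, adjusted p = 0.110; 1.39 without dog 1). CLGN, calmegin, is a chaperone of the endoplasmic reticulum (ER) first described in the testis. It measured 5.60, 5.23 and 5.78 in Day-0 and 7.19, 7.39 and 6.57 in End-stage, again without overlap (1.51, SE 0.27, adjusted p = 0.115; 1.45 without dog 1). TRIB1, a pseudokinase that guides proteins to degradation, differed by 1.29 (SE 0.30; 1.07 without dog 1), and SPON1, a secreted adhesion protein, by 1.48 (SE 0.47). SPON1 owed much of this to End-stage dog 1: its End-stage signals were 7.46, 5.76 and 6.25, and the difference without that dog was 1.00.

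The remaining higher probe sets were dim in at least 1 dog. CTH, the enzyme that makes cysteine from cystathionine, measured 4.58, 1.78 and 3.96 in Day-0 and 6.39, 5.82 and 6.44 in End-stage. Its difference of 2.78 (2.69 without End-stage dog 1) was the largest of the 30 and rested partly on the very low reading of Day-0 dog 2. SDF2L1 (difference 1.56), an ER protein induced by misfolded proteins, DNAJC30 (1.87), a mitochondrial co-chaperone, DNAL1 (1.88), a dynein light chain, and CADM1 (1.46), a cell adhesion molecule, followed, with NSG1 (1.37) and LOC478196 (1.30). The second probe set of LOC478196 differed by -0.40, the opposite direction.

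Among lower genes, FADS1, a fatty acid desaturase that acts on the way to arachidonic acid (chromosome 18, 55262070 to 55273351), had 4 probe sets, all with a difference below 0. The brightest measured 9.85, 9.07 and 9.41 in the Day-0 dogs and 8.23, 7.29 and 7.74 in the End-stage dogs (-1.69, SE 0.42, adjusted p = 0.200; -1.93 without dog 1). The groups did not overlap, and the other FADS1 probe sets gave -1.55, -0.69 and -0.65. PPP1R3C, which brings a phosphatase to glycogen and so promotes glycogen synthesis (chromosome 28, 6342849 to 6347399), measured 10.67, 10.30 and 10.73 in Day-0 and 9.74, 8.21 and 8.94 in End-stage. Its difference was -1.60 (SE 0.40, adjusted p = 0.200) and -1.99 without dog 1, the End-stage dog nearest to the unpaced ones. ANK1, an ankyrin that ties membrane proteins to the spectrin skeleton, measured 10.86, 11.13 and 11.24 in Day-0 and 9.72, 9.93 and 9.60 in End-stage, and all its dogs of a group lay within 0.4 of each other (-1.33, SE 0.33, adjusted p = 0.201; -1.31 without dog 1).

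SLC4A2, a chloride and bicarbonate exchanger that takes part in control of cell pH, measured 6.41, 5.76 and 6.71 in Day-0 and 4.88, 4.69 and 4.84 in End-stage. The End-stage dogs lay within 0.2 of each other and below every unpaced dog (-1.49, SE 0.31, adjusted p = 0.178, and -1.53 without dog 1). This was the dimmest of 3 SLC4A2 probe sets, and the brighter ones gave -0.34 and -0.14. Single Day-0 isolations in the dimmest probe set ranged from 4.48 to 7.46. DHRS11, a short-chain dehydrogenase, measured 10.34, 10.35 and 9.95 in Day-0 and 9.55, 8.81 and 9.34 in End-stage (-0.98, SE 0.23; -1.14 without dog 1). DYNC1I1, an intermediate chain of the motor dynein, differed by -1.47 in this probe set and -0.88 in another. Lower values for other genes were less secure because their probe sets disagreed. YWHAE, a 14-3-3 protein, differed by -1.22 in one probe set and by as much as 2.10 in another; FLNA, filamin A, by -1.94 in a dim probe set, with 1 of 5 above 0; SARS1, seryl-tRNA synthetase, by -1.37, with 2 of 4 above 0; and PSMA4, a proteasome subunit, by -1.15 in one and close to 0 in the other. KIAA1191 (-1.16), PLEKHG6 (-1.42) and LRRC31 (-1.27) were also among the 15, PLEKHG6 and LRRC31 below the filter level in all End-stage dogs, and ACTA1 is described with the heart failure genes.

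**Figure D2:**
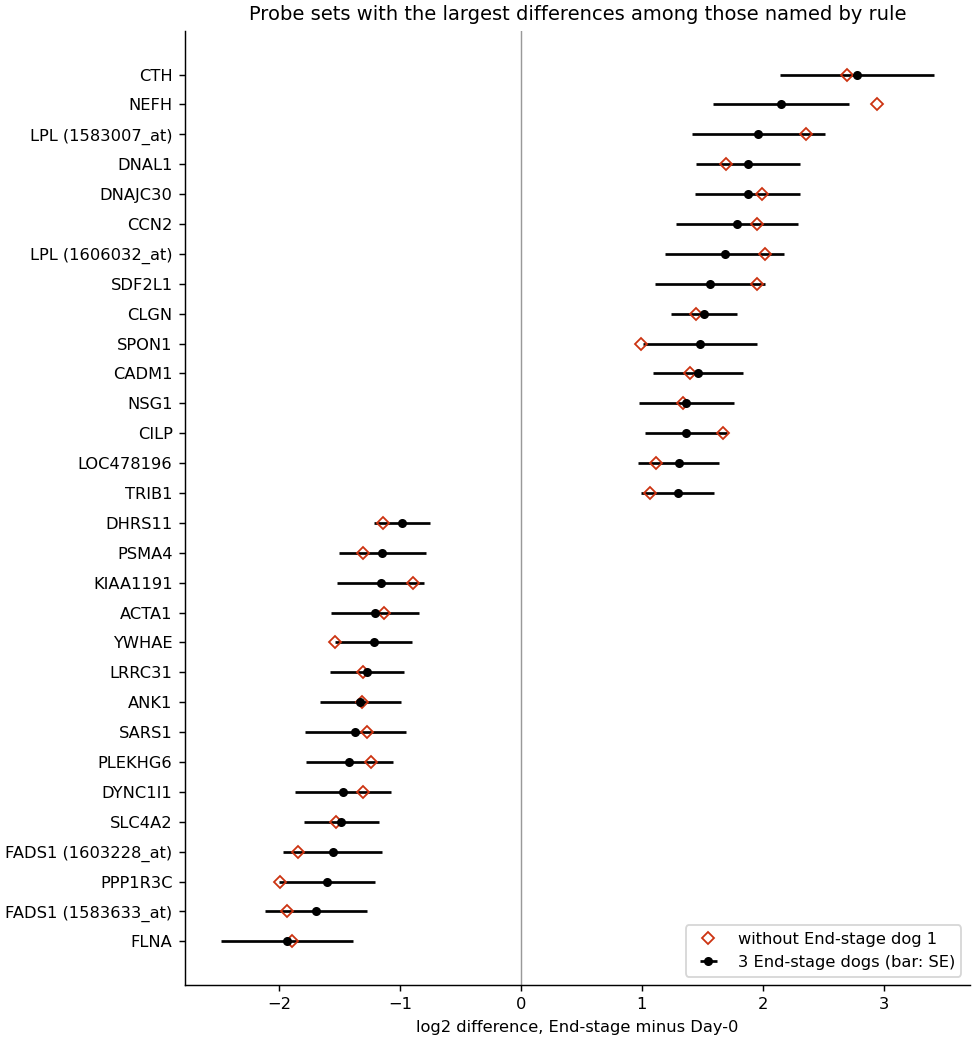
Difference in log2 signal, End-stage minus Day-0 (horizontal axis), of the 15 higher and 15 lower probe sets with the largest differences; filled points are all 3 End-stage dogs with bars of 1 SE, and open red diamonds are the values without End-stage dog 1. The diamonds stay on the same side of 0 for all 30, which the rule of no overlap fixed in advance. NEFH moves from 2.15 to 2.94 and SPON1 from 1.48 to 1.00.

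Genes were then described by group, with each gene represented by its brightest probe set among 5278 genes. Over all genes the median difference was -0.02, 46.8% lay above 0, an unadjusted p under 0.05 was reached by 4.24% higher and 5.04% lower, and in 7.29% the 3 End-stage dogs all lay above and in 9.13% all below the Day-0 dogs. No member of any of the 41 lists with a measured gene passed the threshold over all probe sets. The counts below are of members with an unadjusted p under 0.05 unless stated otherwise, and the values over all genes are what they are read against.

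The interstitial matrix list held 26 measured genes, of which 23 had a difference above 0, with a median of 0.39, or 0.51 without End-stage dog 1. An unadjusted p under 0.05 was reached by 8 members, all higher (30.8% against 4.24% of all genes). In 8 the End-stage dogs all lay above the Day-0 dogs, against 7.29% of all genes. Without dog 1 these counts were 10 and 14 of 26, and the shares of all genes were 4.38% and 13.8%. Besides CCN2, CILP and THBS1 the members with an unadjusted p under 0.05 included LOXL2, a lysyl oxidase that crosslinks collagen. It measured 7.43, 7.62 and 6.88 in Day-0 and 8.13, 8.10 and 8.21 in End-stage (0.83, SE 0.17, adjusted p = 0.178, and 0.84 without dog 1). ASPN, a small proteoglycan that binds collagen (0.91), MFAP4 (0.84) and FBN1 (0.77), both of the elastic microfibrils, and P4HA2, which hydroxylates collagen prolines (0.53), were the others. The fibrillar collagens themselves were less clear. COL1A1 measured 8.26, 9.20 and 7.55 in the Day-0 dogs and 8.86, 9.68 and 9.52 in the End-stage dogs, so that Day-0 dog 2 lay among the failing hearts (1.02, SE 0.53, adjusted p = 0.674; 1.27 without dog 1). COL3A1 gave 0.24 (SE 0.49) and BGN, biglycan, 1.11 (SE 0.56).

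The mean of the matrix list relative to the Day-0 mean was -0.09, 0.25 and -0.17 in the Day-0 dogs and 0.33, 0.53 and 0.78 in the End-stage dogs. Day-0 dog 2 thus came close to End-stage dog 1, and End-stage dog 3 stood highest. The basement membrane list, the sheet around muscle cells and capillaries, had 7 measured members, 6 of them above 0, with a median of 0.36 (0.45 without dog 1). LAMA4 (0.42) and COL4A2 (0.43) had an unadjusted p under 0.05, against 4 members without dog 1. The LAMA4 value is the highest of 5 probe sets, of which 2 lay below 0, the lowest at -0.23. Of the enzymes that degrade matrix and their inhibitors, 5 of 10 lay above 0. TIMP1, an inhibitor of matrix metalloproteinases, measured 7.48, 7.41 and 7.58 in Day-0 and 7.65, 8.17 and 8.35 in End-stage with no overlap (0.57, SE 0.21, adjusted p = 0.438; 0.77 without dog 1), and CTSK, the collagen-cleaving cathepsin K, differed by 0.77 (SE 0.27). The TGF-beta and BMP list, whose ligands drive fibrosis, had a median of 0.12 (0.11 without dog 1) over 17 genes with none past an unadjusted p of 0.05; its ligand TGFB1 gave -0.15 and its receptor TGFBR2 0.50. The fibroblast markers share collagens with the matrix list. Their mean relative to Day-0 was -0.05, 0.57 and -0.52 in the Day-0 dogs and 0.10, 0.32 and 0.69 in the End-stage dogs, 4 of 5 members lay above 0, and their summed signal ranged from 6073 to 9188 in Day-0 and from 6284 to 9177 in End-stage. The part of fibroblast number in the matrix values was not tested.

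Most genes of mitochondrial energy production had differences below 0. Of 50 measured subunits of oxidative phosphorylation, which passes electrons to oxygen and makes ATP, 49 had a difference below 0, with a median of -0.22 and -0.14 without End-stage dog 1. An unadjusted p under 0.05 was reached by 14 of 50 (28.0%, against 5.04% of all genes), all lower, and in 11 the End-stage dogs all lay below the Day-0 dogs. The members named by rule were complex I subunits. NDUFV2, in the arm that accepts electrons from NADH, measured 11.95, 12.35 and 12.21 in the Day-0 dogs and 11.55, 11.58 and 11.86 in the End-stage dogs (-0.51, SE 0.14, adjusted p = 0.269; -0.45 without dog 1). NDUFS4 differed by -0.40, NDUFS3 by -0.35 and NDUFA5 by -0.45, and every probe set of NDUFS3 and NDUFS4 lay below 0. UQCRC1 (-0.36) and CYC1 (-0.35) of complex III and CYCS, cytochrome c (-0.37), were among the other members with an unadjusted p under 0.05. None of the 50 differed by more than 0.51, and 8 of 50 reached that limit without End-stage dog 1, where 4.38% of all genes reached it as higher and 4.72% as lower. The list mean relative to Day-0 was -0.18, 0.09 and 0.09 in the Day-0 dogs and -0.40, -0.19 and -0.12 in the End-stage dogs, so Day-0 dog 1 lay among the failing hearts and End-stage dog 1 below all.

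In the citric acid cycle and pyruvate dehydrogenase list, which feeds that chain, 21 of 24 genes lay below 0 (median -0.32; -0.25 without dog 1), and 10 of 24 had an unadjusted p under 0.05, all lower, against 6 of 24 without dog 1. PDHB, a subunit of pyruvate dehydrogenase, measured 11.31, 11.49 and 11.37 in Day-0 and 11.01, 10.86 and 11.11 in End-stage with no overlap (-0.40, SE 0.10, adjusted p = 0.205; -0.41 without dog 1). IDH3A, a subunit of isocitrate dehydrogenase, gave -0.40 with all 4 probe sets below 0, and SUCLA2 of succinyl-CoA synthetase gave -0.57 (SE 0.19). The kinases that switch pyruvate dehydrogenase off did not share a direction: PDK2 gave -0.46, PDK1 -0.39 and PDK4 0.56 (SE 0.51). Lists of proteins that build mitochondria also had medians below 0. Of 51 proteins of the mitochondrial ribosome, 44 lay below 0 (median -0.15; -0.13 without dog 1), 13 had an unadjusted p under 0.05, all lower, and in 20 the End-stage dogs all lay below the Day-0 dogs. MRPL35 (-0.58), MRPL46 (-0.42), MRPL47 (-0.42) and MRPL19 (-0.38) had the smallest p. For protein import and assembly, 20 of 27 lay below 0 and 3 had an unadjusted p under 0.05; TIMM8A, a small chaperone of the space between the membranes, measured 9.54, 9.70 and 9.56 in Day-0 and 8.91, 9.09 and 8.99 in End-stage (-0.60, SE 0.13, adjusted p = 0.178; -0.56 without dog 1). The cytosolic ribosome had a median of 0.01 (0.14 without dog 1) over 49 genes, and none reached an unadjusted p of 0.05; without dog 1 the End-stage dogs all lay above the Day-0 dogs in 20 of the 49, against 13.8% of all genes.

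Fuel handling was mixed. Of 29 genes of fatty acid uptake and oxidation, 18 lay below 0 (median -0.22; -0.11 without dog 1), 4 with an unadjusted p under 0.05 were lower and 1, LPL, was higher. CD36, which carries fatty acids into the muscle cell, measured 9.45, 9.79 and 9.65 in the Day-0 dogs and 9.17, 8.69 and 8.92 in the End-stage dogs. The groups did not overlap (-0.70, SE 0.17, adjusted p = 0.200; -0.83 without dog 1), so LPL and CD36, which act in turn on circulating fat, had differences of opposite sign. ACSL1, which activates fatty acids with coenzyme A, gave -0.53 with all 4 probe sets below 0, MLYCD, which removes malonyl-CoA, gave -0.51, and HADHA, of the oxidation cycle itself, -0.46. UCP3, a mitochondrial carrier, gave -0.81 (SE 0.72). PPARGC1A, the coactivator that promotes mitochondrial genes, measured 7.86, 7.64 and 7.97 in Day-0 and 7.72, 7.06 and 7.65 in End-stage, with overlap (-0.35, SE 0.26, adjusted p = 0.818; -0.47 without dog 1).

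Glycolysis and glycogen genes had a median of -0.10 (0.04 without dog 1) over 21 genes, 10 above and 11 below 0, with 1 higher and 2 lower at an unadjusted p under 0.05 (2 and 0 without dog 1). The enolases split by isoform. ENO1, the general form, measured 10.36, 10.51 and 10.65 in the Day-0 dogs and 10.77, 11.00 and 11.04 in the End-stage dogs (0.43, SE 0.12, adjusted p = 0.270; 0.51 without dog 1). ENO3, the muscle form, measured 12.11, 12.45 and 12.48 in Day-0 and 11.80, 12.16 and 12.03 in End-stage (-0.35, SE 0.15; -0.26 without dog 1), and all 4 of its probe sets lay below 0. PYGM, muscle glycogen phosphorylase, gave -0.65 (SE 0.28), and the glucose transporter SLC2A1 0.80 (SE 0.42). Of the creatine kinase and energy transfer list, 7 of 9 lay below 0; SLC25A5, an ADP and ATP carrier, gave -0.43 (SE 0.13) and CKMT2, mitochondrial creatine kinase of muscle, -0.21 (SE 0.19).

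**Figure D3:**
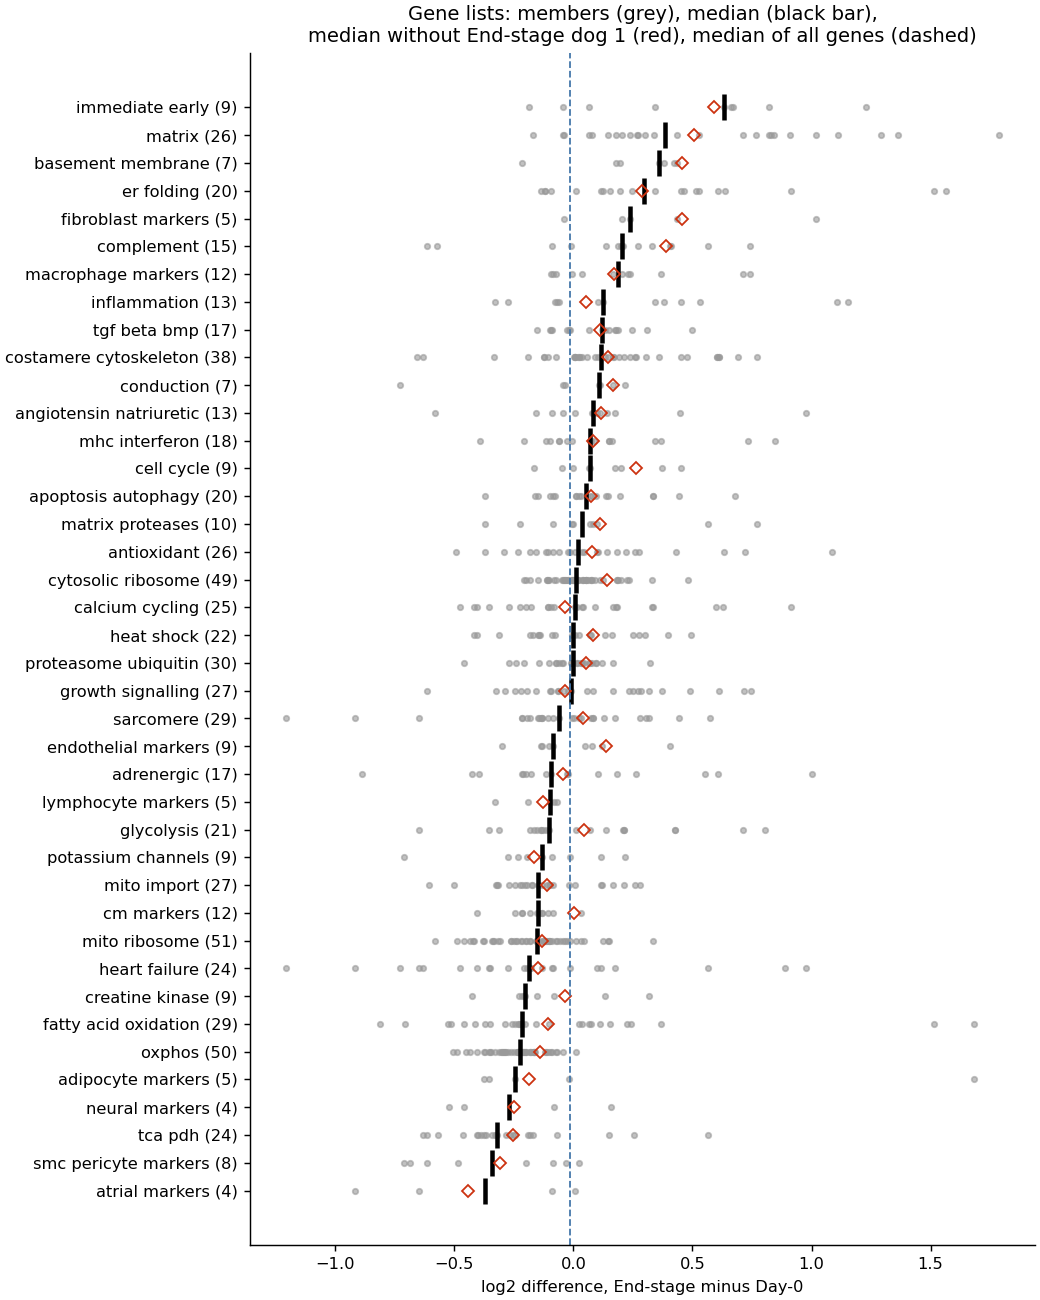
Difference in log2 signal, End-stage minus Day-0 (horizontal axis), of the genes of each list with at least 4 measured members (number in brackets); grey points are genes, black bars the list median, red diamonds the median without End-stage dog 1, and the dashed line the median of all 5278 genes, -0.02. Interstitial matrix (median 0.39) lies to the right and oxidative phosphorylation (-0.22) to the left, with 49 of its 50 points below 0.

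Genes known from heart failure were described whatever their result. Of 44 on the list, 24 were measured above the filter; the natriuretic peptides NPPA and NPPB, the fast myosin MYH6 and phospholamban PLN had no annotated probe set used here. Of the 24, 6 lay above 0 and 18 below, with a median of -0.19 (-0.15 without dog 1); 3 had an unadjusted p under 0.05 and were higher, 4 were lower. ADM, adrenomedullin, a peptide that widens vessels, measured 8.82, 8.54 and 8.22 in the Day-0 dogs and 9.74, 9.82 and 8.95 in the End-stage dogs (0.98, SE 0.27, adjusted p = 0.243; 0.86 without dog 1). End-stage dog 3 lay just above the highest unpaced dog. FHL1, a LIM protein of the sarcomere that takes part in sensing of stretch, measured 11.49, 11.31 and 11.67 in Day-0 and 12.45, 12.27 and 12.41 in End-stage, with the groups well apart, and all 3 of its probe sets lay above 0 (0.89, SE 0.29, 1.85-fold, adjusted p = 0.351; 0.85 without dog 1). ACTA1, skeletal actin, which is counted among the fetal genes, measured 9.78, 10.15 and 9.65 in Day-0 and 8.50, 8.55 and 8.91 in End-stage in this probe set. The difference was -1.21 (SE 0.36, adjusted p = 0.302; -1.13 without dog 1), below 0 in all 4 probe sets, but -0.21 or nearer to 0 in the other three. ANKRD1, a stretch-responsive repressor, differed by -0.63 (SE 0.29).

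The calcium cycling list was evenly divided, 13 above and 12 below 0. RYR2, the channel that releases calcium from the sarcoplasmic reticulum, measured 11.15, 11.31 and 11.55 in the Day-0 dogs and 11.07, 10.98 and 10.74 in the End-stage dogs (-0.40, SE 0.14, adjusted p = 0.374; -0.47 without dog 1), and all 4 RYR2 probe sets lay below 0. ATP2A2, the pump that returns calcium to the store, differed by -0.18 (SE 0.20) in its brightest probe set, with all 9 probe sets below 0, from -0.70 to -0.08. S100A1, which enhances both, differed by -0.35 (SE 0.15) and the sodium and calcium exchanger SLC8A1 by -0.48 (SE 0.41). Of the other members, CALM3, a calmodulin gene, measured 8.94, 9.09 and 8.97 in Day-0 and 9.35, 9.89 and 9.56 in End-stage (0.60, SE 0.14, adjusted p = 0.200; 0.73 without dog 1), and CALR, calreticulin of the ER, 8.03, 7.44 and 7.18 in Day-0 and 8.36, 8.06 and 8.97 in End-stage (0.91, SE 0.23, adjusted p = 0.200; 0.97 without dog 1). In both the groups did not overlap, and all 3 probe sets of each gene lay above 0.

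Except for KCNJ8, the electrical genes described here showed small or poorly determined differences. GJA1, connexin 43, which couples ventricular muscle cells, measured 9.01, 8.85 and 9.39 in Day-0 and 8.61, 7.43 and 9.01 in End-stage, with End-stage dog 3 inside the unpaced range (-0.73, SE 0.44, adjusted p = 0.756; -0.86 without dog 1). The potassium channel genes of repolarisation lay near 0 in KCNH2 (-0.02, SE 0.14), KCNJ2 (0.12, SE 0.39) and KCND3 (-0.19, SE 0.36). KCNIP2, a subunit of the transient outward current, gave -0.28 with an SE of 0.56 (-0.65 without dog 1), and its End-stage signals of 10.46, 8.74 and 9.94 spanned the Day-0 signals of 9.55, 9.99 and 10.42. KCNJ8, a channel subunit found in pericytes and smooth muscle as well, gave -0.71 (SE 0.23, adjusted p = 0.346). Of 17 adrenergic signalling genes, 6 lay above 0 and 11 below, with a median of -0.10 (-0.04 without dog 1). An unadjusted p under 0.05 was reached by 3, all higher (2 without dog 1). AKAP13, an anchor for protein kinase A, measured 9.10, 8.98 and 9.28 in Day-0 and 9.87, 9.81 and 9.50 in End-stage. Its difference was 0.61 (SE 0.14, adjusted p = 0.200) and 0.54 without dog 1, and its other probe sets gave 0.14 to 0.34. GNAI2, an inhibitory G protein, differed by 0.55 (SE 0.23) and the catalytic subunit PRKACA by 1.00 (SE 0.46). The lowest member, PDE1C, gave -0.89 (SE 0.57).

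Of 29 sarcomere genes, 13 lay above and 16 below 0, and only ACTA1 had an unadjusted p under 0.05. MYH7, the slow myosin heavy chain, gave -0.13 (SE 0.23), TNNT2 -0.18 (SE 0.21) and TNNI3 -0.09 (SE 0.23), the last 2 being troponin subunits; without dog 1 MYH7 and TNNI3 gave 0.04 and 0.07. The structures that link the sarcomere to the membrane and matrix lay mostly above 0: 30 of 38 genes of costamere and cytoskeleton had a difference above 0 (median 0.12; 0.15 without dog 1), 8 higher and 2 lower with an unadjusted p under 0.05. LMNA, the nuclear lamin A, measured 7.72, 7.74 and 7.54 in the Day-0 dogs and 8.14, 8.39 and 8.28 in the End-stage dogs (0.60, SE 0.15, adjusted p = 0.200; 0.67 without dog 1). The integrins ITGAV (0.60, SE 0.17) and ITGB5 (0.45, SE 0.14), which together form a receptor for matrix proteins, the integrin-linked kinase ILK (0.48), dystrophin DMD (0.36) and the tubulins TUBB6 (0.77), TUBB (0.61) and TUBA1C (0.69) were the other higher members. ANKRD1 and LIMS1, PINCH, a partner of ILK (-0.66), were the lower ones.

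Most genes for folding of proteins in the ER had differences above 0. Of 20 measured, 16 were above 0 (median 0.30; 0.29 without dog 1), 8 had an unadjusted p under 0.05, all higher, and in 9 the End-stage dogs all lay above the Day-0 dogs. Beside CLGN, CALR and SDF2L1 these were the disulfide isomerases PDIA4 (0.61, SE 0.16; 0.69 without dog 1), PDIA6 (0.46, SE 0.13) and PDIA3 (0.64), the chaperone HSP90B1 (0.53) and the transcription factor XBP1 (0.51), which induces such genes. PDIA4 measured 8.66, 8.44 and 8.80 in the Day-0 dogs and 9.07, 9.22 and 9.41 in the End-stage dogs. The list mean relative to Day-0 was 0.13, -0.18 and 0.05 in Day-0 and 0.32, 0.33 and 0.54 in End-stage, with every End-stage dog above every unpaced dog. Cytosolic heat shock genes had a median near 0 over 22 genes, and 1 of them, the factor HSF1, had an unadjusted p under 0.05 (0.40, SE 0.12).

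Defences against oxidants were split between members. The antioxidant list had a median of 0.02 (0.08 without dog 1) over 26 genes, yet 4 had an unadjusted p under 0.05, all higher (15.4%, against 4.24% of all genes). These were GPX1 in its brightest probe set (0.43, SE 0.14), the secreted peroxidase GPX3 with 10.33, 10.66 and 10.68 in Day-0 and 11.20, 11.51 and 10.85 in End-stage (0.63, SE 0.22; 0.62 without dog 1), GCLM of glutathione synthesis (0.72, SE 0.24) and the metallothionein MT2A (1.09, SE 0.46). All 4 GPX3 probe sets lay above 0, while MT2A had 2 of 3 below 0. The proteasome list, with a median near 0 over 30 genes, had no member with an unadjusted p under 0.05.

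Apart from CCL2, inflammatory genes were few and dim. Of 38 on the list, 13 were measured, and CCL2 was the one with an unadjusted p under 0.05. SPP1, osteopontin, measured 6.15, 5.71 and 4.84 in the Day-0 dogs and 6.32, 6.55 and 7.29 in the End-stage dogs (1.15, SE 0.64, adjusted p = 0.711; 1.35 without dog 1). The complement list had a median of 0.21 (0.39 without dog 1), with 3 members higher at an unadjusted p under 0.05 and 1 without dog 1; C1QC, part of the first component and made by macrophages, gave 0.74 (SE 0.31), and VWF, of endothelial cells, measured 10.20, 10.30 and 10.29 in Day-0 and 10.59, 10.79 and 10.62 in End-stage (0.41, SE 0.14; 0.44 without dog 1). The macrophage markers had 8 of 12 above 0 (median 0.19; 0.17 without dog 1), with a summed signal of 953 to 1279 in Day-0 and 1131 to 1481 in End-stage. The scavenger receptor CD163 gave 0.71 (SE 0.45) and the defining marker CD68 -0.07 (SE 0.28). The part of macrophage number in the CCL2 value was not tested. Of the lymphocyte markers 5 were measured, all below 0 in their brightest probe sets, from -0.33 to -0.07. The lowest was CD4, whose other probe set gave 0.21. The interferon and antigen presentation list had a median of 0.07 (0.08 without dog 1) with ISG15 as its member of smallest p (0.73, SE 0.24).

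Immediate early genes, which answer to stretch and stress within minutes, had the highest list median, 0.63 (0.59 without dog 1) over 9 genes, but the dogs differed widely. The list mean relative to Day-0 was -0.13, -0.46 and 0.59 in the Day-0 dogs and 0.32, 0.10 and 0.97 in the End-stage dogs, so that Day-0 dog 3 lay above End-stage dogs 1 and 2. MCL1, a survival protein, was the one with an unadjusted p under 0.05, with 8.58, 8.45 and 8.68 in Day-0 and 9.28, 8.96 and 9.36 in End-stage (0.63, SE 0.18, adjusted p = 0.269; 0.59 without dog 1). FOS gave 1.23 with an SE of 1.32.

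The growth signalling list was balanced (13 above and 14 below 0), with 1 higher member at an unadjusted p under 0.05 and 5 without dog 1, and with VEGFA, the growth factor of capillaries, at -0.61 (SE 0.20, both probe sets below 0) and MTOR at 0.61 (SE 0.21, 3 of 4 probe sets above 0). Autophagy and cell death genes had a median of 0.05 (0.07 without dog 1), with ULK1, which starts autophagy (0.44, SE 0.18), and the lysosomal LAMP2 (0.33, SE 0.15) higher at an unadjusted p under 0.05 and CYCS lower (1 higher and 0 lower without dog 1). Of the natriuretic peptide and angiotensin list, CORIN, the protease that matures the atrial peptide, gave -0.58 (SE 0.25), the angiotensin receptor AGTR1 0.10 (SE 0.35), AGT, the precursor of angiotensin, -0.09 (SE 0.27) and endothelin EDN1 0.18 (SE 0.22). In the cell cycle list CDKN2C, an inhibitor of division, gave 0.45 (SE 0.16) and 9 genes were measured in all; it was the 1 with an unadjusted p under 0.05, and there were 0 without dog 1.

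The labelled tissue was checked against markers of the cells it could hold. Muscle cell markers were among the brightest: MYH7 averaged 13.61 in Day-0 and 13.48 in End-stage, and TNNT2 13.46 and 13.28. Of the 12 muscle markers 11 lay below 0 with all dogs (median -0.15), but their median was near 0 without End-stage dog 1 and with quantile normalization. Their mean relative to Day-0 was -0.34, 0.16 and 0.18 in the Day-0 dogs and -0.44, -0.01 and -0.05 in the End-stage dogs, so dog 1 of each group stood low. In all 5 groups of the series dog 1 had the lowest mean of the muscle markers and of oxidative phosphorylation, where the End-stage median nevertheless kept its sign without End-stage dog 1, and the part of muscle cell share in the mitochondrial values was not tested. The atrial myosin light chains were bright in some ventricles. MYL4 differed more between dogs of a group than between groups, while in MYL7 every End-stage dog but dog 1 lay below the Day-0 dogs. MYL4 measured 10.49, 10.06 and 7.02 in the Day-0 dogs and 8.04, 7.04 and 9.74 in the End-stage dogs (-0.92, SE 0.98; -0.80 without dog 1), and MYL7 10.98, 11.48 and 11.57 in Day-0 and 11.36, 10.86 and 9.86 in End-stage (-0.65, SE 0.40; -0.98 without dog 1).

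Smooth muscle and pericyte markers lay below 0 in 7 of 8 genes (median -0.34; -0.31 without dog 1). In 4 the unadjusted p was under 0.05 (2 without dog 1), and in 4 the End-stage dogs all lay below the Day-0 dogs. SMTN, smoothelin, a marker of contractile smooth muscle, measured 10.98, 10.92 and 11.06 in the Day-0 dogs and 10.31, 10.41 and 10.39 in the End-stage dogs (-0.61, SE 0.13, adjusted p = 0.178; -0.58 without dog 1), and all 4 probe sets lay below 0. The smooth muscle myosin MYH11 measured 9.65, 8.74 and 9.21 in Day-0 and 8.46, 8.60 and 8.47 in End-stage (-0.69, SE 0.29; -0.66 without dog 1), the smooth muscle actin ACTA2 gave -0.49 (SE 0.20) and KCNJ8 was described above. DES, desmin, which heart muscle expresses too, gave 0.02. Their summed signal was 15232 to 17347 in Day-0 and 12475 to 14849 in End-stage. Endothelial markers had a median of -0.08 (0.14 without dog 1) over 9 genes, with VWF higher at an unadjusted p under 0.05, and 4 neural markers, the cells NEFH is best known from, had 3 below 0 (NCAM1 -0.52, UCHL1 -0.46, GAP43 -0.08).

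**Figure D4:**
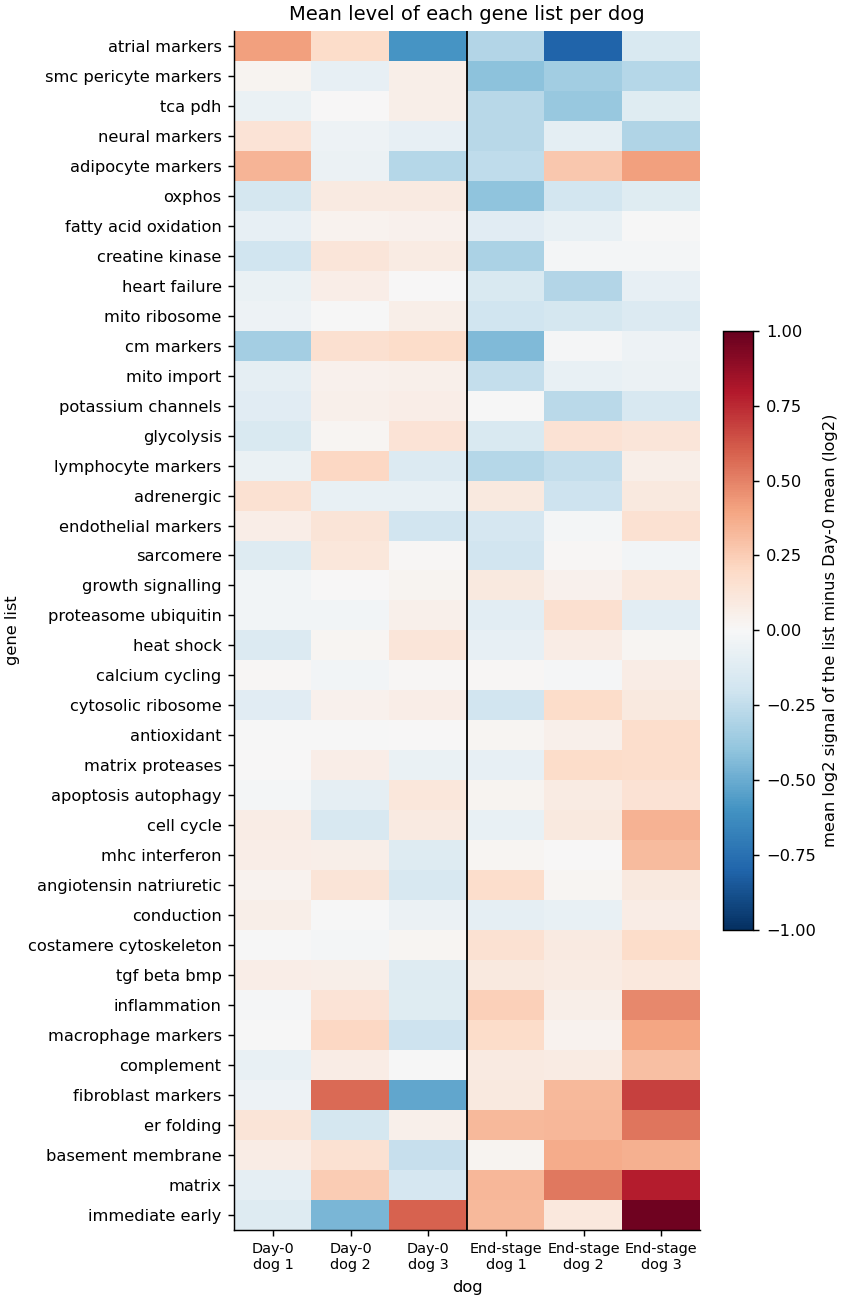
Mean log2 signal of each gene list with at least 4 measured genes, minus its mean over the Day-0 dogs, in the 3 Day-0 and 3 End-stage dogs (columns; red is higher, blue is lower, in log2 units on the colour bar). ER folding is red in every End-stage dog, smooth muscle and pericyte markers are blue in all 3, and the muscle markers and oxidative phosphorylation are low in Day-0 dog 1 as well as in End-stage dog 1.

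Levels at the earlier stages show where along the course of pacing the End-stage values lie. Each stage was set against the same 3 Day-0 dogs, so the values of a gene share their baseline. The means of THBS1 minus Day-0 were 0.64 in Day-3, 0.97 in Week-1, 1.78 in Week-2 and 1.29 in End-stage, those of CCL2 0.76, 0.77, 1.60 and 1.11, and those of CLGN 0.68, 1.67, 2.11 and 1.51. All 3 genes had their highest mean in Week-2. NEFH stood at 0.37, 0.10, 2.44 and 2.15, near the unpaced level until Week-2. Its Week-2 dogs measured 6.77, 8.38 and 7.41, and all were above the 5.63 of End-stage dog 1. LPL, in its brighter probe set, stood at 0.91, 1.53, 0.44 and 1.68, lowest of the paced stages in Week-2. Without Week-1 dog 1, whose arrays disagreed, the Week-1 means were 0.86 for THBS1, 0.78 for CCL2, 1.67 for CLGN, -0.04 for NEFH and 1.87 for LPL, and without End-stage dog 1 the End-stage mean of NEFH, 2.94, was above that of Week-2.

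Among lower genes, ANK1 stood at -1.28, -1.22, -1.47 and -1.33 from Day-3 to End-stage, close to its End-stage level from the first stage on. ACTA1 had its lowest mean in Day-3: -2.26, then -1.35, -1.52 and -1.21. SMTN went from -0.15 through -0.27 and -0.40 to -0.61, and PPP1R3C from -0.77 through -1.02 and -1.05 to -1.60, both lowest in End-stage. SLC4A2, in its dimmest probe set, stood at -0.58, -0.36 and 0.01 before -1.49 in End-stage. Its Week-2 dogs measured 6.84, 6.13 and 5.95, above every End-stage dog. Without Week-1 dog 1 the Week-1 means of ANK1, ACTA1, SMTN, PPP1R3C and SLC4A2 were -1.26, -1.25, -0.20, -1.14 and -0.33. Differences between End-stage and the earlier stages were not tested. The End-stage arrays come from dogs whose pacing lasted 3 to 4 weeks, so the last step on this axis is not a single time.

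**Figure D5:**
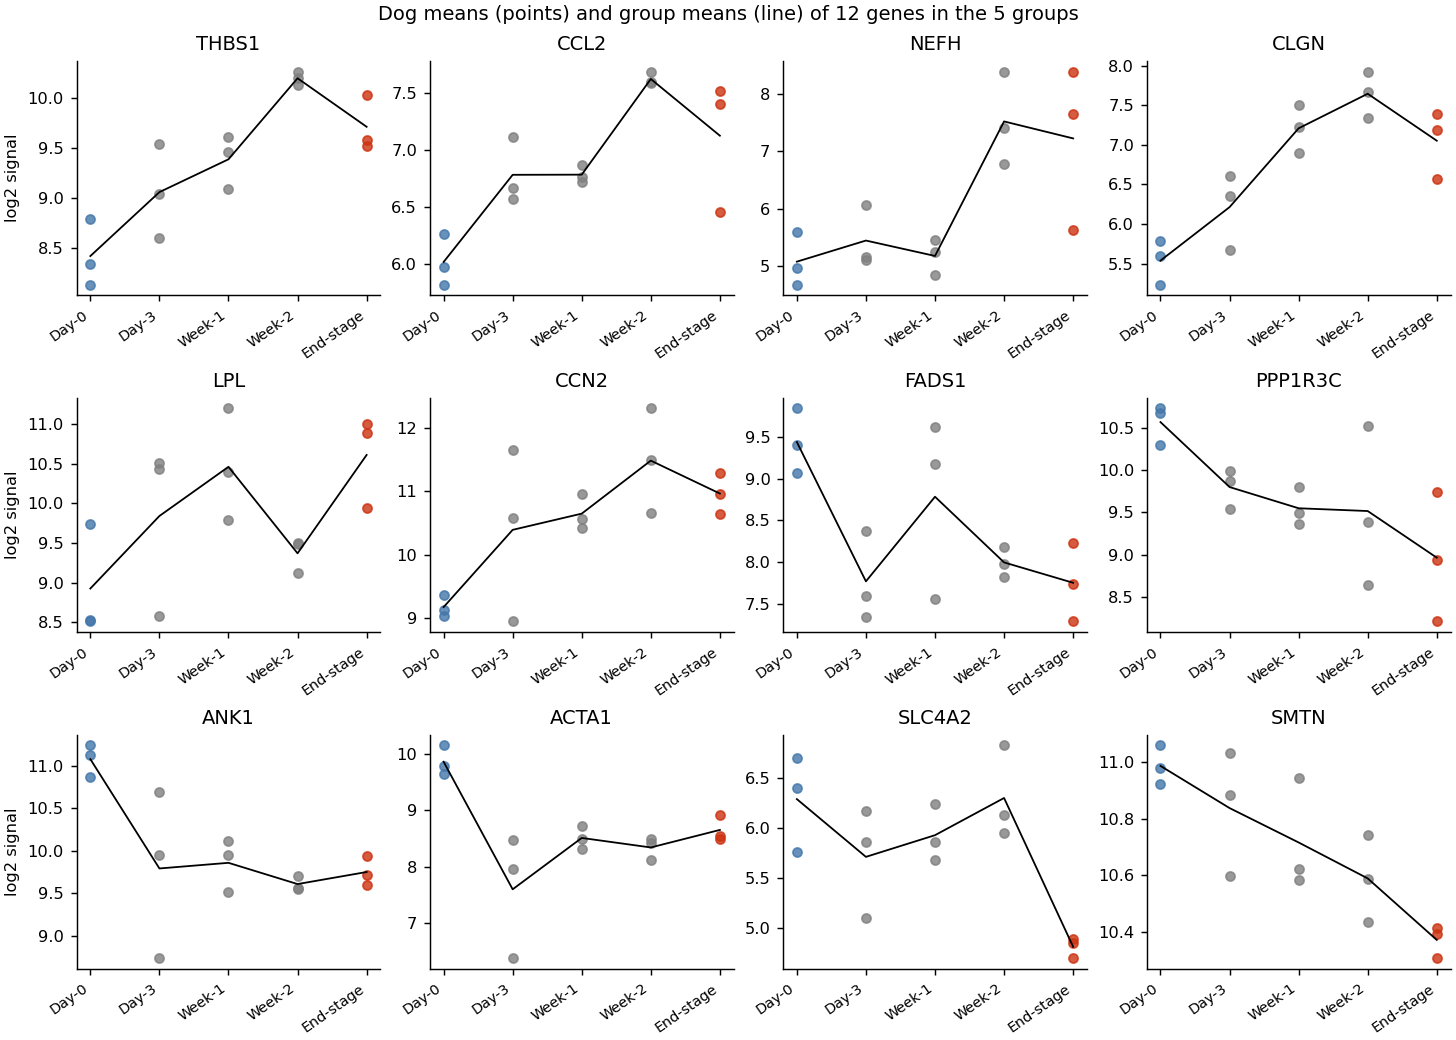
Log2 signal (vertical axis, a separate scale in each panel) of 12 genes in the 3 dogs of each of the 5 groups (points) with group means (line); Day-0 is blue and End-stage red, LPL and FADS1 are their brightest probe sets, and ACTA1 and SLC4A2 the probe sets named by rule. In End-stage this SLC4A2 probe set, the dimmest of the gene, lies at 4.69 to 4.88, below all dogs of the other groups, while ANK1 and ACTA1 are already low in Day-3.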

How the data were processed

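RNA of 45 arrays (15 male dogs, 3 RNA isolations each) was measured on single-colour canine oligonucleotide arrays. The deposited values are linear signal intensity per probe set, computed by the authors with GCOS 1.4 and MAS5 per the submitters' processing notes. The authors scaled each array: a mean trimmed by 2% at each end came to 150.02 to 150.03 on all arrays, which forces a common overall level. Array data have no read depth; the number of dogs limits precision. Groups, dogs and isolations were taken from the deposited labels.

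After log2 transformation the 3 isolations of a dog were averaged, making the dog the replicate. Of 23913 probe sets, 77 controls and the dimmest 40% (mean signal below 22.8) were left out. The 5 group means were estimated jointly from the 15 dogs (limma 3.58.1, R 4.3.3, eBayes with intensity trend). Two-sided p values of End-stage minus Day-0 were adjusted by Benjamini-Hochberg over 14301 probe sets, with a threshold of 0.05. Of these, 7674 carried 1 symbol in the array's 2016 annotation, 100 several and 6527 none; 7283 of the 7674 matched the RefSeq table of assembly UU_Cfam_GSD_1.0, the source of gene positions. A gene in a list is its brightest probe set.

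Named were every probe set past the threshold; the 15 largest rises and 15 largest falls with 1 symbol, unadjusted p under 0.01 and groups that did not overlap; all measured genes of the heart failure list; and, of each of 42 textbook lists, at most 4 members with the smallest p. Other list members, other probe sets of these genes and those called only without End-stage dog 1 were chosen after their values were seen. The comparison, members and lists were chosen with earlier results of these data known. The fit was tested on simulated data. Alternatives were other scalings, filters, an offset, a replicate block and leaving out dogs or isolations; both settings that use part of the isolations of End-stage dog 1 were added after the data were seen.

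Nothing in the labels names a batch, litter or array date.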

Additional observations from a re-analysis of the deposited data

How the results depend on the processing

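The number of probe sets past the threshold, 2, changed with most settings, so it is a poor measure of this comparison. Leaving out 1 dog in turn gave 0 to 6, and 6 only without End-stage dog 1. It was 11 without End-stage dog 1 and Week-1 dog 1, 6 with the 6 compared dogs alone, and 6 with dogs weighted by arrayWeights. Without isolation 2 or 3 of every dog it was 4 or 5, and with End-stage dog 1 from isolation 1 alone 20. With all 45 arrays and the dog as a random block it was 322, where 2 of 2 were among them. There isolations count as observations, so the 322 are not comparable with calls made over dogs. The number was 0 with quantile normalization, median centring, no filter, the median of the isolations, no isolation 1 of every dog, no intensity trend, or no isolation 1 of End-stage dog 1. With the replicate number as a block it was 0. Same-numbered Day-0 and End-stage dogs had deviations from their group means that correlated at 0.17, -0.02 and 0.03, and not every dog correlated best with its own number, so the numbers were not taken to pair the dogs, although dog 1 was lowest in muscle markers in all 5 groups. An offset of 16 before log2, or only the brighter 40% of probe sets, gave 2. The number with an unadjusted p under 0.05 in limma ranged from 841 to 1601 over all settings, against 1177. The cause of these changes was not tested.

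Of 205 named probe sets, 181 had the same direction in all 23 settings. Many were named for a small p or for no overlap, and the settings reuse the same dogs. Such a share was thus favoured in advance. Of the 41 list medians, 21 had 1 sign in all settings, among them interstitial matrix (0.25 to 0.57), ER folding (0.23 to 0.43), oxidative phosphorylation (-0.34 to -0.14), citric acid cycle (-0.35 to -0.25), the mitochondrial ribosome (-0.21 to -0.10) and smooth muscle and pericyte markers (-0.47 to -0.26). The other 20, none over 0.24 in size with all dogs, changed sign, among them fibroblast markers (-0.034 to 0.65) and muscle cell markers (-0.34 to 0.0029). Of the probe sets, 24 changed sign in at least 1 setting, and 23 of these had a difference under 0.4 in size. Leaving out 1 dog in turn gave ranges across 0 for AGT (-0.20 to 0.078), AGTR1 (-0.11 to 0.34), KCND3 (-0.48 to 0.13), KCNH2 (-0.21 to 0.11), KCNIP2 (-0.65 to 0.21), KCNJ2 (-0.14 to 0.51), MYH7 (-0.32 to 0.041), TNNI3 (-0.29 to 0.069), COL3A1 (-0.21 to 0.74) and GAP43 (-0.19 to 0.0059). Without both End-stage dog 1 and Week-1 dog 1 the values that changed sign were AGTR1 -0.11, KCNH2 0.11, KCNJ2 -0.14, MYH7 0.041 and TNNI3 0.069. Scaling changed the sign of KCNH2 (0.031 with median centring) and TNNI3 (0.051 with quantile normalization). The median of the isolations gave KCNH2 0.11 and KCNJ2 -0.13. Without isolation 1 of every dog GAP43 was 0.059; without isolation 2, AGT was 0.14, TNNI3 0.011 and FADS1 in its probe set 1599004_at 0.018; without isolation 3, KCNH2 was 0.026 and KCNJ2 -0.26. With End-stage dog 1 from isolation 1 alone, AGT was 0.041, TNNI3 0.0099 and GAP43 0.052. Genes with differences this small have no settled direction here.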
